A study of Oryza sativa with 4 samples.

Results

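The genes described here are the rice SPX genes, which take part in phosphate sensing, and DUR3, which encodes a urea transporter. They were chosen by name: every gene whose symbol or synonym, without an Os prefix, is SPX with a number, and DUR3. The gene table holds 7 such genes, SPX1 to SPX6 and DUR3, and the array annotation links 6 of them to 8 of the 57194 probe sets (7 probe sets for 5 SPX genes and 1 for DUR3). No probe set is linked to SPX6, which is not analysed here. The samples are leaves of young rice plants (Oryza sativa, cultivar Senia, V2 stage) measured on Affymetrix rice arrays. Treated plants stood in sealed bags with CO2 raised to 30%, control plants stayed in air labelled 0.04% CO2, and all spent 6 h in the dark at 27 °C after growth in a cycle of 16 h light and 8 h dark. Each group has 2 biological replicates, and a replicate pools leaves from 10 plants. The labels do not say whether control plants were bagged too, so the bag and the gas cannot be told apart.

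As background, SPX proteins carry a domain that binds inositol pyrophosphates, small molecules whose level follows the phosphate supply of the cell. In that bound state they hold back PHR transcription factors, which otherwise switch on genes for phosphate uptake, transport and recycling. In rice most SPX genes are themselves switched on by PHR2 under phosphate shortage, whereas SPX4 acts mainly through the stability of its protein. DUR3 is a proton-coupled transporter in the plasma membrane that takes up urea at low concentrations, and is known best from roots and from leaves that move nitrogen out as they age.

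Signals are deposited on the log2 scale, where 1 unit is a doubling, and differences are given as 30% CO2 minus control. The sample medians lay between 3.85 and 3.92. Of the 9 leaf markers listed, 6 were found by name, and their control signals stood between the 92.5th and the 100th percentile of all probe sets. The 3 of 7 root markers found stood between the 20.1th and the 74th. In limma's test 11.5% of all probe sets passed an adjusted p of 0.05, 4.73% as higher and 6.78% as lower under CO2. Among the 8 probe sets of the SPX genes and DUR3, 2 passed, SPX2 as higher and DUR3 as lower. With 8 probe sets, and with members chosen when earlier results were known, nothing is read from that share.

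SPX2 (LOC4328654) rose under 30% CO2. It encodes a nuclear SPX protein that in rice holds back PHR2 when phosphate is plentiful. CO2 replicates 1 and 2 had log2 signals of 7.93 and 7.67, and control replicates 1 and 2 had 5.70 and 5.48. The CO2 samples lay far above the controls, and the replicates of a group differed by only 0.26 and 0.22. The group means were 7.80 ± 0.18 and 5.59 ± 0.15 (SD, n = 2), a log2 difference of 2.21 ± 0.16 (SE; 95% interval 1.80 to 2.62; limma adjusted p = 0.00535). On the linear scale this is a 4.62-fold rise, with an interval from 3.47 to 6.14. Of all probe sets, 586 (1.02%) had a larger rise. The probe set went from the 67th to the 84.3rd percentile of signals. When 1 sample was left out, SPX2 kept its call only without CO2 replicate 2, and the difference stayed between 2.08 and 2.34. Such fits leave 1 sample in a group and have less power, so a lost call is not particular to SPX2.

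**Figure D1:**
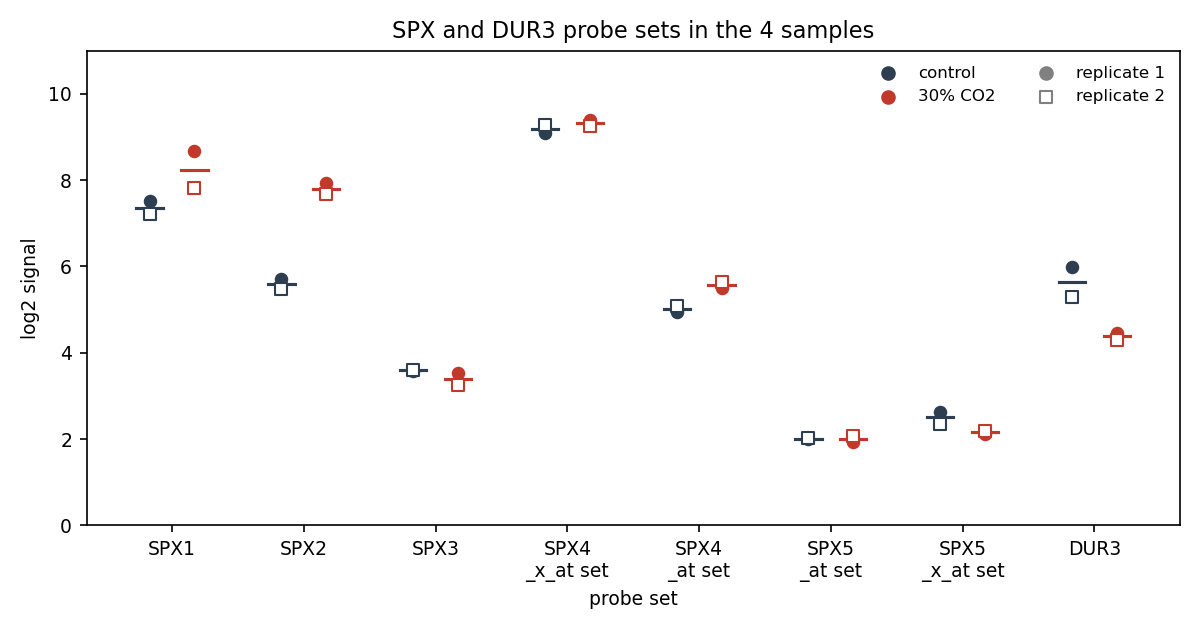
Log2 signal (y axis) of the 8 probe sets of SPX1 to SPX5 and DUR3 (x axis) in each of the 4 samples, with controls dark and 30% CO2 red, replicate 1 as filled circles, replicate 2 as open squares and group means as bars. The SPX2 samples sit at 5.48 and 5.70 in controls and at 7.67 and 7.93 under CO2, while the DUR3 samples sit lower under CO2, at 4.30 and 4.45 against 5.29 and 5.99.

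SPX1 (LOC4341465), the closest partner of SPX2 in holding back PHR2 in rice, was higher in the CO2 samples but did not pass the test. CO2 replicates 1 and 2 had log2 signals of 8.67 and 7.82, and the controls had 7.51 and 7.21. Both CO2 samples were above both controls, as were those of 27.8% of all probe sets, yet the CO2 replicates differed by 0.85, nearly as much as the group means did. The difference was 0.88 ± 0.31 (95% interval 0.07 to 1.70; limma adjusted p = 0.164). Leaving out CO2 replicate 1 gave 0.46, and leaving out CO2 replicate 2 gave 1.31.

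The change of SPX2 was set against those of SPX1 and SPX4 within each sample. The SPX2 signal minus the SPX1 signal was -1.81 and -1.73 in control replicates 1 and 2, and -0.74 and -0.15 in CO2 replicates 1 and 2. The gap narrowed in both CO2 samples, and the log2 changes differed by 1.32. The samples of the groups did not overlap in this gap. An exact permutation test over the 4 samples (two-sided) gives p = 0.333 for any gap without overlap, the smallest value that 2 samples against 2 allow, so it cannot show whether the changes of SPX2 and SPX1 differ. Against the brighter probe set of SPX4 the change of SPX2 was larger by 2.07, with the same limit. SPX3 and SPX5 are not set against SPX2 in this way, since their signals are not known to be above background.

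SPX4 (LOC4334647), whose protein keeps PHR2 out of the nucleus in rice, has 2 probe sets, and neither passed. The brighter set, whose name ends in _x_at and whose probes may match more than a single transcript, gave 9.39 and 9.25 under CO2 and 9.09 and 9.27 in controls. These groups overlapped, with a difference of 0.14 ± 0.14 (95% interval -0.22 to 0.49; limma adjusted p = 0.618). The other set gave 5.50 and 5.63 under CO2 and 4.94 and 5.09 in controls. Here the CO2 samples were above the controls by 0.55 ± 0.13 (95% interval 0.21 to 0.90; limma adjusted p = 0.0676). After quantile normalization the difference was 0.62 and limma's adjusted p was 0.0465. The changes of the 2 sets differed by 0.42. Within each sample, the dimmer set minus the brighter set was -3.89 and -3.62 in CO2 replicates 1 and 2, and -4.16 and -4.19 in controls, without overlap. With 2 samples against 2, the permutation test cannot show whether the changes of the sets differ.

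SPX3 (LOC4348535) and SPX5 (LOC4333078) are closely related genes known from rice as inhibitors of phosphate starvation responses. SPX3 gave 3.54 and 3.26 under CO2 and 3.57 and 3.60 in controls, a difference of -0.18 ± 0.15 (95% interval -0.56 to 0.20; limma adjusted p = 0.517). Its CO2 samples were both below the controls, replicate 1 only just, and 26% of all probe sets had their CO2 samples below both controls. SPX5 was near the bottom of the signal range on both of its probe sets, at or below the 17.4th percentile in either group. On the _at set its signals were 1.93 and 2.07 under CO2 and 2.01 and 2.02 in controls, with a difference of -0.02 ± 0.12 (95% interval -0.34 to 0.30). On the _x_at set they were 2.12 and 2.19 against 2.63 and 2.36, a difference of -0.34 ± 0.14 (95% interval -0.71 to 0.04; limma adjusted p = 0.236). The table gives no detection calls, so whether SPX3 and SPX5 were above background is not known. The intervals leave room for changes of up to -0.56 in SPX3 and -0.71 in SPX5.

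**Figure D2:**
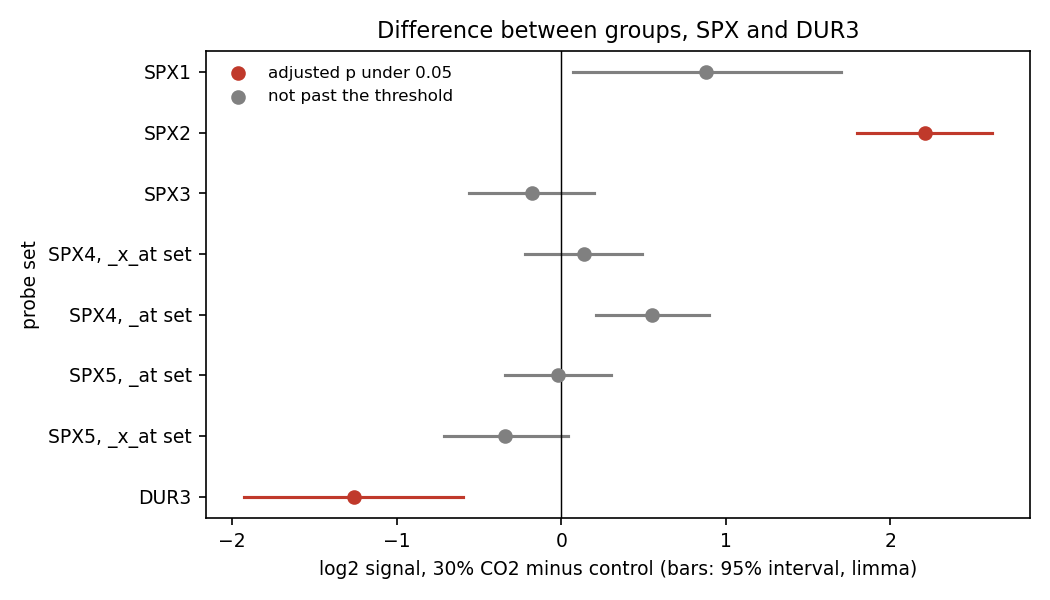
Log2 signal under 30% CO2 minus control (x axis) for the 8 probe sets (y axis), as limma estimates (points) with 95% intervals (bars), red where the adjusted p is under 0.05 over all probe sets. SPX2 stands at 2.21 and DUR3 at -1.26, and the intervals of SPX3, both SPX5 sets and the _x_at set of SPX4 include 0.

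DUR3 (LOC4349520) fell under 30% CO2, close to the threshold. CO2 replicates 1 and 2 had log2 signals of 4.45 and 4.30, and control replicates 1 and 2 had 5.99 and 5.29. Both CO2 samples were below both controls, and the controls differed from each other by 0.70. The means were 4.38 ± 0.11 and 5.64 ± 0.49 (SD, n = 2), a difference of -1.26 ± 0.26 (SE; 95% interval -1.93 to -0.60; limma adjusted p = 0.0445). The control signal was 2.4 times the CO2 signal on the linear scale, with an interval from 1.51 to 3.8. Of all probe sets, 1961 (3.43%) had a larger fall. The DUR3 probe set went from the 67.4th to the 56.1st percentile of signals. Without detection calls, whether its CO2 signal was above background is not known. The call was lost when any 1 sample was left out, with differences from -1.61 without control replicate 2 to -0.91 without control replicate 1. Such fits leave 1 sample in a group and have less power. Without CO2 replicate 2, however, other probe sets, SPX2 among them, were still called, while DUR3 (-1.19) was not. The name of its only probe set ends in _s_at, which marks probes shared by more than a single transcript. In these whole leaves, fewer cells of a type and less RNA per cell cannot be told apart. Among the 3 root markers found, IRT1, an iron transporter gene, stood at -2.47, LSI1 at 0.33 and LSI2 at 0.02, and their part in the DUR3 result was not tested.

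**Figure D3:**
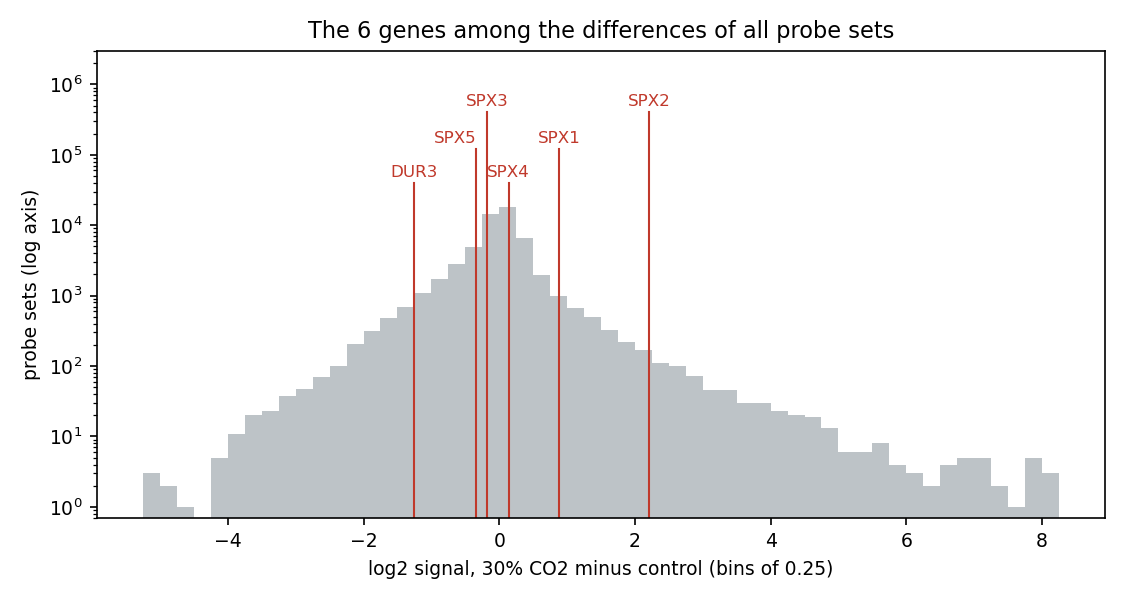
Number of probe sets (y axis, log scale) by log2 signal under 30% CO2 minus control (x axis, bins of 0.25), with red lines at the difference of SPX1 to SPX5 and DUR3, each on its brightest probe set. SPX2 lies in the right tail with 1.02% of probe sets beyond it, DUR3 has 3.43% beyond it on the left, and SPX3, SPX4 and SPX5 lie in the central mass.

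Other genes of phosphate and nitrogen handling were taken from 5 lists of names. Here the brightest probe set (by mean over the samples) stands for a gene, and p-values were adjusted over 17905 genes, of which 31.2% were called (12.4% higher and 18.8% lower) with a median difference of -0.08. Of the 69 genes in the lists, 54 have a probe set, and of these 11 were called, 5 higher (9.26%) and 6 lower (11.1%), with a median of -0.01. Neither share exceeds that of all genes. Detection calls are missing for the list genes too, so whether those with low signals were above background is not known. Without control replicate 1 or control replicate 2 limma called 0 of the 54, while 13 and 11 had an unadjusted p under 0.05. Without CO2 replicate 1 it called 7.

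The PHR factors, the partners that SPX proteins hold back, did not pass in any of 3 genes by limma, with a list median of -0.36. On the brightest probe sets 1 of them, PHR3, had an unadjusted p under 0.05. PHR2, the main activator of phosphate starvation genes in rice, gave 9.70 and 9.58 under CO2 and 9.27 and 9.45 in controls. The difference was 0.28 ± 0.13 (limma adjusted p = 0.184). The second probe set of PHR2 stood at 0.39 ± 0.15 and did not pass either (limma unadjusted p = 0.0467, adjusted p = 0.187 over all probe sets). PHR3 stood at -0.42 ± 0.15 (adjusted p = 0.0907).

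Of 7 inositol phosphate kinase genes, whose enzymes make the precursors of the ligands of SPX proteins, 3 rose, 1 fell and 3 did not pass (list median 0.11). That is 42.9% higher and 14.3% lower, against 12.4% and 18.8% of all genes, in a list of only 7. ITPK3, a kinase of inositol phosphates, had signals of 9.35 and 9.45 under CO2 and of 12.04 and 12.29 in controls. That is a fall of 2.76 on the log2 scale (SE 0.14; limma adjusted p = 0.00219), and its second probe set, at -1.02, was called lower too. DSM3, also named ITPK2, went the other way, with 9.90 and 9.14 under CO2 against 7.67 in each control (1.85 ± 0.27, adjusted p = 0.00986). ITPK1 rose by 1.20 ± 0.23 (adjusted p = 0.0186), and IPK1, for the kinase that completes inositol hexakisphosphate, rose by 0.87 ± 0.13 (adjusted p = 0.00972). ITPK4, IPK2 and ITPK5 lay between -0.12 and 0.11.

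Among 16 genes of phosphate transport and recovery, 1 rose, none fell and 15 did not pass (list median 0.07). The share higher was 6.25%, below the 12.4% of all genes. The gene that rose was MGD3, for a synthase of galactolipids, the membrane lipids that can take the place of phospholipids when phosphate is short. Its signals were 9.39 and 8.98 under CO2 and 7.42 and 7.32 in controls, a difference of 1.82 ± 0.18 (limma adjusted p = 0.00427). The 9 phosphate uptake transporter genes of the Pht1 family lay between -0.30 and 0.33, none past the threshold. Of these, Pht1;1 and Pht1;8 had control means of 8.80 and 7.38, and the others had 2.20 to 4.55. The phosphate exporter genes PHO1;2 and PHO1;3 lay at 0.20 and 0.26, also not past it, with control means of 5.66 and 3.83. Whether the Pht1 genes with low signals and PHO1;3 were above background is not known. Over all 15 genes not passing, differences ran from -0.30 to 0.86. The largest was PHT3, with 3.93 and 2.88 under CO2 against 2.67 and 2.43 in controls. PHT3 entered the list by its name alone, and whether it takes part in phosphate handling was not checked. SPX2 and MGD3 are the genes called higher among the SPX genes and the lists of phosphate regulation, transport and recovery.

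On the nitrogen side, 3 of 13 genes for urea, ammonium and nitrate transport fell, none rose and 10 did not pass (list median -0.14). The share lower was 23.1%, near the 18.8% of all genes. The 3 that fell are ammonium transporter genes. AMT3;2 was at 5.11 and 5.43 under CO2 and at 6.32 and 6.36 in controls (-1.07 ± 0.15, limma adjusted p = 0.00963). Its probe set ends in _x_at. AMT1;2 stood at -0.94 ± 0.12 (adjusted p = 0.00697), with low signals of 2.46 and 2.49 under CO2 against 3.38 and 3.45 in controls. As for SPX3, whether AMT1;2 was above background is not known. AMT2;1 stood at -0.92 ± 0.15 (adjusted p = 0.0124). The other 5 ammonium transporter genes lay between -0.68 and 0.04, and the genes of the NRT2, NAR2 and TIP4 groups between -0.30 and 0.49. DUR3 itself was at -1.26, with an adjusted p of 0.0227 over genes.

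Urea breakdown and nitrogen assimilation had 1 of 15 genes higher, 2 lower and 12 not passing (list median -0.22). These shares, 6.67% higher and 13.3% lower, are below the 12.4% and 18.8% of all genes. OAT, for the ornithine aminotransferase of arginine breakdown, rose by 1.17 ± 0.12 (limma adjusted p = 0.00507), from 7.84 and 7.92 in controls to 8.99 and 9.11, and its second probe set rose by 1.29. GDH, also named GDH1, for a glutamate dehydrogenase, stood at -1.63 ± 0.34 (adjusted p = 0.0247), with 6.73 and 7.71 under CO2 against 8.96 and 8.75. UREG, for an accessory protein that activates urease, was at -0.79 ± 0.17 (adjusted p = 0.0254). The remaining genes, among them those for glutamine synthetases, glutamate synthases and nitrate reductase, lay between -0.67 and 0.44.

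**Figure D4:**
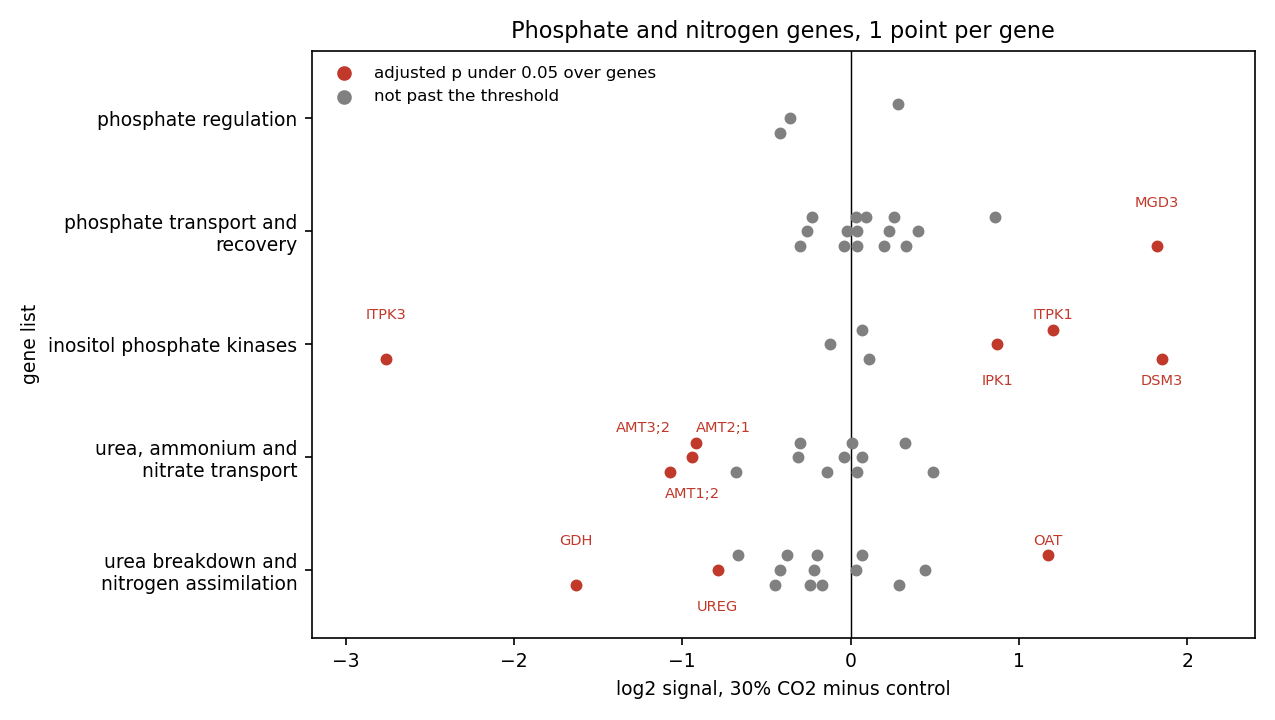
Log2 signal under 30% CO2 minus control (x axis) of the 54 genes in 5 phosphate and nitrogen lists (y axis), 1 point per gene, red and named where the limma adjusted p over genes is under 0.05. The inositol phosphate kinases spread from -2.76 (ITPK3) to 1.85 (DSM3), while most genes of phosphate transport lie near 0 and the 3 called ammonium transporter genes lie near -1.

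The named genes most like SPX2 were found among 2457 others by the Euclidean distance of log2 values, centred on each gene's mean, over the 4 samples. They were PSY2 (distance 0.08), for a phytoene synthase of carotenoid synthesis, DOF5 (0.13), for a Dof transcription factor, and IPS (0.16), also named RINO1, for the inositol phosphate synthase that opens inositol synthesis. IPS was at 11.72 and 11.50 under CO2 and at 9.57 and 9.49 in controls. For DUR3 the nearest were AOS (0.18), for an allene oxide synthase of jasmonate synthesis, HPT2 (0.25), for a homogentisate prenyltransferase, and BURP3 (0.27). For SPX1 they were BI1 (0.08), for a Bax inhibitor, FC1 (0.10), for a cinnamyl alcohol dehydrogenase, and BGLU19 (0.11), for a beta-glucosidase. With 4 samples in 2 groups, such likeness holds little more than the size of the group difference and the replicate spread.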

How the data were processed

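The values are log2 signals per probe set as deposited by the authors, 1 column per sample, and the submitters' processing notes name RMA and limma without versions. Genome build and annotation are not given in the sources used here. No rescaling was applied. With 4 arrays, precision is limited by their number.

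Genes were assigned from the platform annotation and a table of rice genes (assembly ASM3414082v1, names only). Of 57194 probe sets, 22436 had 1 gene, 95 had several and 34663 are unnamed here, and all 17905 genes matched.

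Groups were compared with limma 3.58.1 in R 4.3.3 (lmFit, eBayes, two-sided, no filter or block), with Benjamini-Hochberg adjustment and a threshold of 0.05. The fit had 2 residual degrees of freedom, to which the prior adds 2.85. P-values set the group difference against the spread between these pooled samples, moderated by a prior drawn from all probe sets. The procedure was tested on simulated data. Named list genes are up to 6 past the threshold per list, or the 2 with the smallest p. Names that hit a list by accident (GRF4, HCT3 and LBD6) were left out. PAP2 and PHT3 stayed in by name alone, and whether they take part in phosphate handling could not be checked. Members and lists were chosen with earlier results of these data known. Alternatives were a replicate block, quantile normalization, a signal filter, a trended prior, leaving out samples, other choices of probe set and centring. Figures used matplotlib 3.10.9 in Python 3.11.15.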

Additional observations from a re-analysis of the deposited data

How the results depend on the processing

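The replicate numbers are shared by label only, and deviations of same-numbered samples correlated at -0.102 over probe sets, with 2 pairs. With a replicate block 1691 probe sets were called in place of 6583, and 1 of 8 SPX and DUR3 probe sets, since DUR3 (-1.26) had an adjusted p of 0.0772 and SPX2 kept its call (0.0432). Of the list genes, ITPK1 (adjusted p 0.0671), GDH (0.0645) and UREG (0.0646) lost their calls with the block. With the pairing crossed, an alternative chosen after seeing the data, 3478 and 1 were called, with DUR3 (-1.26) at 0.0921. After quantile normalization the _at set of SPX4 passed at 0.62, so that 3 of 8 were called. Leaving out each sample in turn gave 0 to 2477 called probe sets (with 0 called, 9246 to 11506 had an unadjusted p under 0.05 in limma), 0 to 1 called among the 8, and 0 to 11 called list genes in place of 11. In those fits SPX2 ranged from 2.08 to 2.34, DUR3 from -1.61 to -0.91, and the _at set of SPX5 from -0.08 to 0.05. These fits leave 1 residual degree of freedom, and the lone sample of a group is assumed to vary like the other group. List genes called ranged from 8 to 13 under the other alternatives. Centring on the median difference of all probe sets (0.0204) turned no direction among the 8.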

Other observations

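For SPX3, SPX4 and SPX5, whose values differed little between samples, 913, 909 and 932 of the 2457 named genes lay within a Euclidean distance of 0.5 (centred log2 values, 4 samples), against 34 for SPX2, 41 for DUR3 and 78 for SPX1. The nearest to SPX3 was BGLU18, for a beta-glucosidase (distance 0.02), to SPX4 ERF42, also named DREB2B (0.04), and to SPX5 CPS2, for a copalyl diphosphate synthase (0.04).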
